A study of Mus musculus with 33 samples.

Results

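The 10 genes described here code for the main proteins of the perineuronal net and of the looser matrix between brain cells: *Acan*, *Bcan*, *Ncan*, *Vcan*, *Hapln1*, *Hapln2*, *Hapln4*, *Tnr*, *Tnc* and *Ptprz1*. They were chosen by symbol, are 10 of the 23366 genes counted, and all 10 passed the filter on low counts in both sexes. Their expression was measured by RNA-Seq in the frontal cortex of C57BL/6 offspring of about 1 month of age, whose dams, and later the dams with their pups, had breathed filtered air, aerosols of e-cigarettes whose liquid held nicotine at 13 to 16 mg/mL, or e-cigarette aerosols without nicotine. There were 6 air, 5 nicotine and 5 no nicotine samples in females, and 6 air, 6 nicotine and 5 no nicotine samples in males. Per the study's methods no litter gave more than 1 pup. The labels do not name litters, so whether females and males shared some could not be checked. Each sex had a sequencing run and a count table of its own, so sex and run cannot be told apart and changes against air were read within each sex. Both exposures of a sex were set against the same 6 air samples.

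A perineuronal net is a dense coat of matrix that forms around the cell body and proximal dendrites of certain neurons, above all the fast-spiking interneurons that express parvalbumin, and it matures in the cortex during the first weeks after birth. Its scaffold is hyaluronan, a long sugar chain to which the lecticans aggrecan, brevican, neurocan and versican bind through one end, each carrying chondroitin sulfate chains. Link proteins lock the lecticans onto hyaluronan, tenascin-R cross-links them at the other end, and enzymes that sulfate or cleave these molecules set the texture of the net. Related assemblies of the same families surround the nodes of Ranvier of myelinated axons, where brevican, versican and the link protein Hapln2 (also called Bral1) are found.

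Each female library had 19150562 to 27513174 counts (median 23583389.5) and each male one 17845672 to 24787955 (median 20907489). As a check on the labels, *Xist*, which is made from the inactive X chromosome, was read in every library. It lay between 119.5 and 155.6 normalized CPM (counts scaled to the library size) in the females and at or below 0.253 in 16 of the 17 libraries labelled male. The library labelled male nicotine replicate 21 had 215.3 and so went against its label. The changes of the members and the counts of calls in the male nicotine group are given with and without it for the main test (edgeR). Other values that draw on this group keep it except where stated, among them those of other tools and of the difference between the sexes. All 9 markers of cortical glutamatergic neurons were counted in all libraries (lowest count 40), and so were all 9 markers of striatal projection neurons (lowest count 294), which a piece of frontal cortex need not hold.

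In mm9, the genome build of the files, each of the 4 lectican genes stands next to a link protein gene with no annotated gene between. *Bcan* (chromosome 3, 87791453 to 87804278, minus strand) is 21393 bases from *Hapln2* (87825672 to 87831505, minus strand). *Ncan* (chromosome 8, 72616984 to 72644772, minus strand) is 2222 bases from *Hapln4* (72607428 to 72614761, plus strand). *Vcan* (chromosome 13, 89794915 to 89882117, minus strand) is 43477 bases from *Hapln1* (89680241 to 89751437, plus strand). *Acan* (chromosome 7, 86198369 to 86259985, plus strand) is followed after 40 bases by the end of *Hapln3*, the remaining link protein gene, on the other strand. *Tnr* lies on chromosome 1 (161667641 to 161855053, plus strand), *Tnc* on chromosome 4 (63620819 to 63681760, minus strand) and *Ptprz1* on chromosome 6 (22825502 to 23002916, plus strand). Of the 50-base windows along the longest coding transcript, at most 0.336% (in *Ncan*) recurred exactly in a coding transcript of another gene. The study's mapping allowed mismatches, while near matches and noncoding transcripts were not searched, so reads from near copies were not assessed. In *Tnc*, 176 exon bases are also exon of a gene on the opposite strand, and since the strand setting of the counting is not given in the sources used here, reads of the pair could not be separated there.

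The 250 bases before the RefSeq start are shown for *Tnr* and *Hapln2*, the members whose level changed, and for *Hapln1* and *Acan*, the link protein and the lectican most used as markers of the net. The sequences are those of RefSeq on GRCm38.p6, where 9 of the 10 members were matched and *Hapln4* was not. Capitals mark each CG, a motif that reads the same on both strands.
Tnr: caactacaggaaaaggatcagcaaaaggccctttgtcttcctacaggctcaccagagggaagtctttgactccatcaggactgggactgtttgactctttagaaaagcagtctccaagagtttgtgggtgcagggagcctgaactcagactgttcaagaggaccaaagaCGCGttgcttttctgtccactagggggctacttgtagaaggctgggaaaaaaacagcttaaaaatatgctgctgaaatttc
Hapln2: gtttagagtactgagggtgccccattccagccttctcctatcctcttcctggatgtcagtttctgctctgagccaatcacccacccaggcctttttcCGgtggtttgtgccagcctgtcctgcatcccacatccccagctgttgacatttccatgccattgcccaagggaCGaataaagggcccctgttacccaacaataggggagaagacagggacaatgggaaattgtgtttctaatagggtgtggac
Hapln1: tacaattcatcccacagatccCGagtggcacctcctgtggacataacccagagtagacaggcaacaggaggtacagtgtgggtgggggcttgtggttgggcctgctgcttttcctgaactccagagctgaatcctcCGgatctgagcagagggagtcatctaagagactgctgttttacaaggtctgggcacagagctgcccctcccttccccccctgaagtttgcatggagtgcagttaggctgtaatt
Acan: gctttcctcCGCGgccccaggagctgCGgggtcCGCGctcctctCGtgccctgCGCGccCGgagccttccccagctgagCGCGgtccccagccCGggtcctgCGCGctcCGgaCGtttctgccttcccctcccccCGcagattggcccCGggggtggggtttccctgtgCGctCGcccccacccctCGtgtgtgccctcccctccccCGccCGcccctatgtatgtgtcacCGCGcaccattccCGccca
The windows of *Tnr*, *Hapln2* and *Hapln1* each held 2 CG. Of 32851 mouse windows of the same length 29.0% held at most 2, and the median was 6. Those of the other matched members held more, from 6 in *Ncan* to 26 in *Acan*. The RefSeq start of *Tnr* lies upstream of the start of the mm9 gene model given above, so the 2 sources place its first exon differently.

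To set the members side by side, normalized CPM in the air samples was divided by the length of the longest coding transcript (CPM per kb). *Bcan* stood highest, at 182 CPM per kb ± 19.7 (SD, n = 6) in females and 175 ± 10.1 in males, apart from the rest in every sample. *Ncan* (72.6 ± 5.80 in females, 77.0 ± 3.83 in males) and *Ptprz1* (68.0 ± 8.43 and 73.1 ± 6.18) followed and overlapped each other. *Hapln4* came next at 30.99 ± 6.49 in females and 24.4 ± 2.97 in males. *Hapln1* (18.1 ± 1.96 in females, 17.6 ± 1.12 in males) and *Tnr* (16.6 ± 1.00 and 19.5 ± 0.872) overlapped, and in males *Tnr* also overlapped *Hapln4*. *Hapln2* (3.09 ± 0.564 and 3.76 ± 0.716) and *Vcan* (2.94 ± 0.101 and 3.53 ± 0.338) could not be told apart, and *Tnc* (1.47 ± 0.487 and 1.75 ± 0.493) and *Acan* (0.851 ± 0.130 and 1.00 ± 0.0935) stood lowest, overlapping in females only. The 2 air groups thus ranked the members alike except for *Tnr* and *Hapln1*, which changed places. The lectican that marks the mature net, *Acan*, was therefore the member with the lowest level per length in the whole tissue piece.

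**Figure D1:**
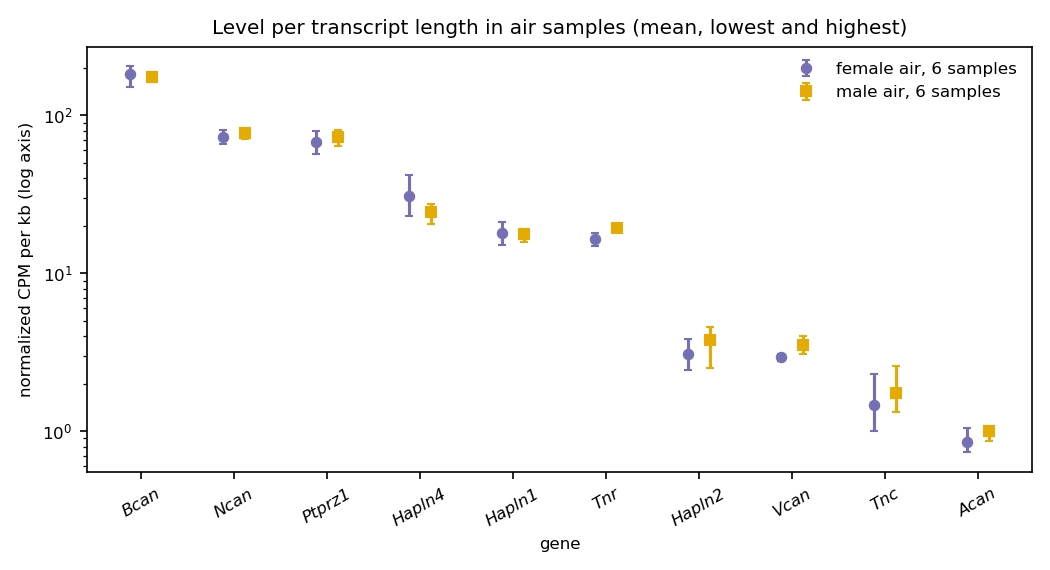
Normalized CPM per kb of the longest coding transcript (log axis) of the 10 genes in the air samples, with points at the mean and bars from the lowest to the highest of 6 samples per sex. *Bcan* stands above all others at 182 in females and 175 in males, and *Acan* is lowest at 0.851 and 1.00.

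Exposure to e-cigarette aerosols was read against air for each member next, with edgeR's quasi-likelihood test and a threshold of 0.01 on the Benjamini-Hochberg adjusted p over all genes tested in that sex. *Tnr* was lower and *Hapln2* was higher without nicotine in females, *Hapln2* was higher with nicotine in females, and *Tnr* was lower without nicotine in males. That is 1 of 10 members called in females with nicotine, beside 4.29% of all 15158 genes tested, and 2 of 10 in females without nicotine, beside 12.1%. In males 1 of 10 was called without nicotine, beside 13.6% of 15293 genes, and 0 of 10 with nicotine, beside 0%. By direction, 1.98% of all genes were called higher and 2.32% lower in females with nicotine, 5.03% and 7.03% in females without nicotine, and 6.15% and 7.47% in males without nicotine. With 10 members these shares are near those over all genes and are not a result about the members as a group. The median log2 fold change of the 10 members was -0.080 in females with nicotine (all genes 0.0041), -0.0038 without (all genes 0.0092), -0.037 in males with nicotine (all genes 0.0065) and -0.039 without (all genes 0.016).

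**Figure D2:**
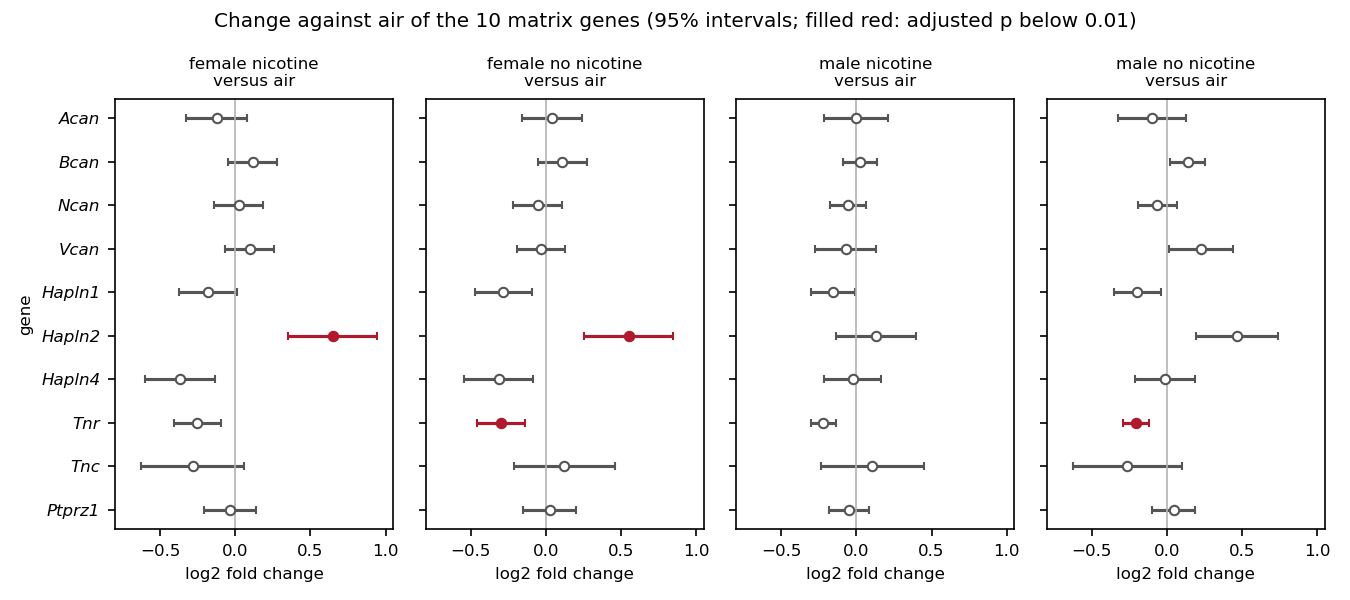
Log2 fold change against air of the 10 genes in the 4 comparisons, with 95% intervals from the edgeR fit and filled red points where the adjusted p was below 0.01. The red points are *Hapln2* in females with nicotine (0.65) and without (0.55), and *Tnr* without nicotine in females (-0.30) and males (-0.21).

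*Tnr* codes for tenascin-R, a glycoprotein of oligodendrocytes and some neurons that binds the lecticans and holds the net together. In females its normalized CPM ran from 73.2 to 88.4 (median 82.6) in the 6 air samples. It was 74.6, 68.6, 72.8, 72.7 and 56.4 in the 5 samples with nicotine and 68.9, 70.4, 75.1, 59.0 and 60.5 in the 5 samples without nicotine. The exposed samples were lower than all air samples but one, female air replicate 1, which at 73.2 lay within their range. *Tnr* fell by 18.7% without nicotine (95% interval -27.1 to -9.36%, log2 fold change -0.30, SE 0.074, edgeR adjusted p = 0.00809). With nicotine its log2 fold change was -0.25 (SE 0.074, edgeR adjusted p = 0.0349), which did not pass the threshold. The call without nicotine was lost in the fits without air replicate 2, 3, 4, 5 or 6 or no nicotine replicate 2, 4 or 5 (adjusted p up to 0.0239).

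In males *Tnr* ran from 90.5 to 101.4 normalized CPM (median 96.5) in air and from 79.5 to 87.9 (median 82.4) with nicotine, and it was 85.6, 84.2, 83.3, 77.0 and 87.6 without nicotine. Every exposed male sample was below every air sample, with either aerosol. Of all genes, 2.05% had groups that did not overlap with nicotine and 12.4% without nicotine. *Tnr* fell by 13.4% without nicotine (95% interval -18.3 to -8.16%, log2 fold change -0.21, SE 0.040, edgeR adjusted p = 0.00109). With nicotine its log2 fold change was -0.22 (SE 0.038, 95% interval -0.30 to -0.14), and its edgeR adjusted p of 0.0334 was above the threshold. No gene of the 15293 had a smaller adjusted p, but genes can share a value after this adjustment. Without the library labelled male nicotine replicate 21 that log2 fold change was still -0.22 (edgeR adjusted p = 0.0730). The DESeq2 Wald test, from the tool the study used, gave *Tnr* an adjusted p of 3.22e-05 with nicotine in males. The change of *Tnr* differed between the sexes by -0.023 (female minus male, 95% interval -0.19 to 0.14, edgeR adjusted p = 0.979) with nicotine and by -0.084 (-0.26 to 0.087, adjusted p = 0.962) without.

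*Hapln2* codes for a link protein of the nodes of Ranvier, where it holds versican and brevican to hyaluronan. In females its normalized CPM ran from 4.20 to 6.55 (median 5.22) in air. It was 8.11, 8.55, 6.88, 6.71 and 11.04 in the samples with nicotine and 7.99, 7.11, 7.53, 6.78 and 9.25 in those without. All 10 exposed female samples were above all 6 air samples, which held for 6.67% of all genes with nicotine and 10.7% without, counting either direction. *Hapln2* rose by 56.6% with nicotine (95% interval 27.6 to 92.3%, log2 fold change 0.65, SE 0.14, edgeR adjusted p = 0.00760) and by 46.6% without (19.4 to 79.9%, log2 fold change 0.55, SE 0.14, adjusted p = 0.00920). Both adjusted p lay close under the threshold. With nicotine the call was lost without air replicate 1, 3, 4 or 5 or nicotine replicate 1, 2 or 6 (adjusted p up to 0.0239), and without nicotine it was kept only in the fits without air replicate 2 or 6 or nicotine replicate 3, 5 or 6 (adjusted p up to 0.0317 in the others).

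In males *Hapln2* ran from 4.27 to 7.82 normalized CPM (median 6.69) in air and from 5.91 to 7.64 (median 7.27) with nicotine. It was 7.53, 9.20, 9.70, 10.6 and 7.15 without nicotine. The groups overlapped, although 3 of the 5 samples without nicotine were above all air samples. Its log2 fold change was 0.13 with nicotine (95% interval -0.13 to 0.40, edgeR adjusted p = 0.693) and 0.47 without nicotine (0.19 to 0.74, adjusted p = 0.0136), neither of them past the threshold. The first was 0.11 when the library labelled male nicotine replicate 21 was left out. Without nicotine the adjusted p was 0.00546 with DESeq2, and edgeR's fell below the threshold, to no lower than 0.00647, without air replicate 37 or no nicotine replicate 7. Between the sexes, the change with nicotine differed by 0.52 (female minus male, 95% interval 0.12 to 0.92), with an edgeR adjusted p of 0.659.

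**Figure D3:**
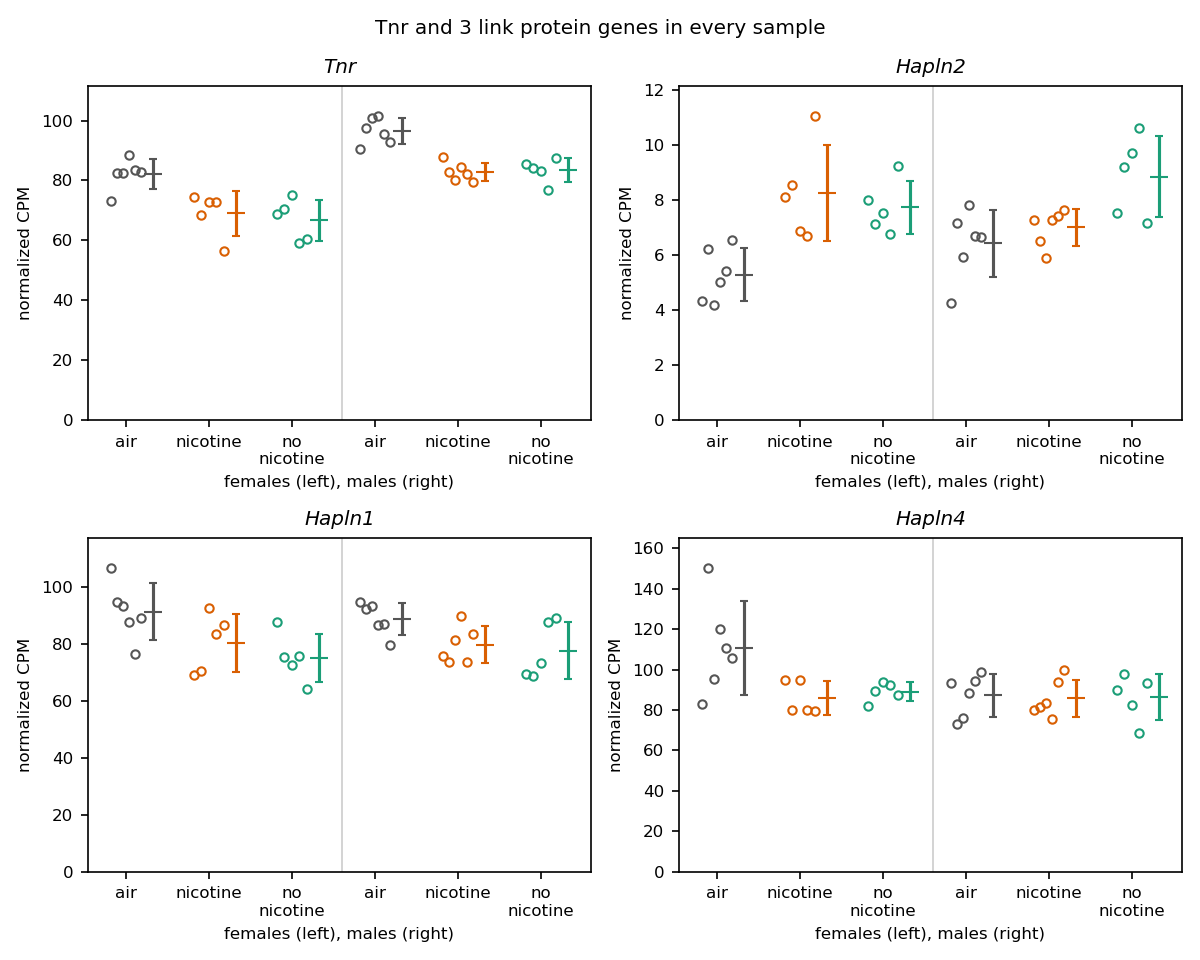
Normalized CPM of *Tnr*, *Hapln2*, *Hapln1* and *Hapln4* in each sample (circles) with the group mean and SD beside them, females left and males right of the grey line. In *Tnr* all exposed male samples (77.0 to 87.9) lie below all male air samples (90.5 to 101.4), and in *Hapln2* all exposed female samples lie above the female air samples.

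Markers of other cells moved in the same samples. The summed normalized CPM of 11 genes of myelinating oligodendrocytes ran in females from 8894 to 10770 in air, from 14540 to 18540 with nicotine and from 11970 to 18090 without, and in males from 10250 to 12620, 10460 to 16250 and 14970 to 25620. All 11 were called higher in females with either aerosol and 9 of 11 in males without nicotine, while with nicotine in males 0 were called (all 11 had log2 fold changes above 0, median 0.19). In such bulk samples more cells of a type and more RNA per cell cannot be told apart. *Hapln2* per 10000 CPM of this list was 5.33 ± 0.883 (SD, n = 6) in female air samples, 5.002 ± 0.621 (n = 5) with nicotine and 5.29 ± 1.21 (n = 5) without, and 5.72 ± 0.994, 5.58 ± 0.579 and 4.85 ± 0.487 in males. The ranges of this ratio overlapped between all groups of a sex, and the part of the myelin genes in the change of *Hapln2* was not tested.

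**Figure D4:**
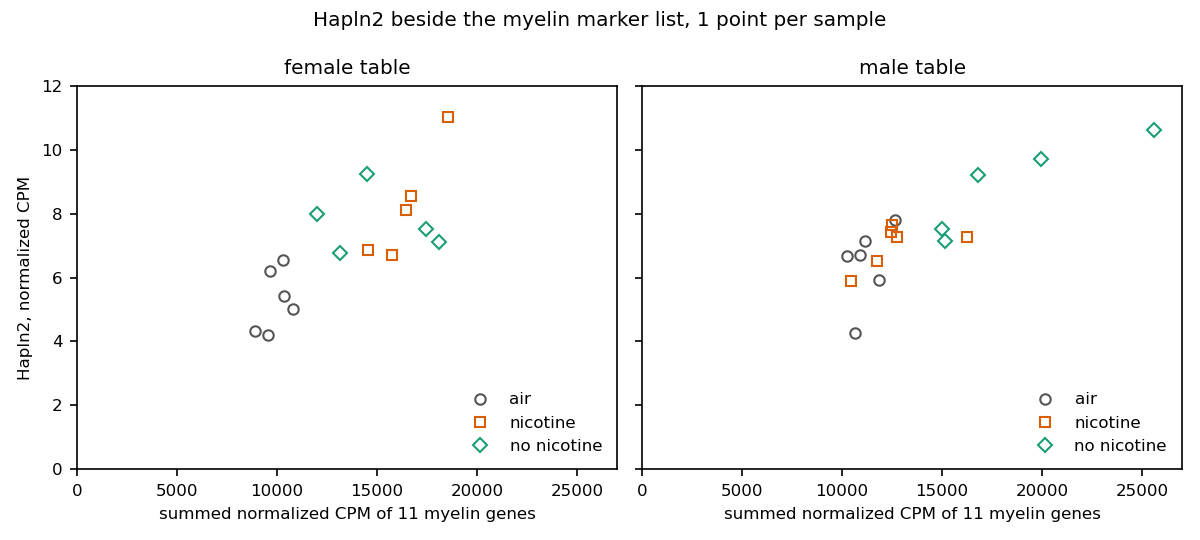
*Hapln2* in normalized CPM against the summed normalized CPM of 11 myelin genes, 1 point per sample, females left and males right. The highest sum went with the highest *Hapln2* in each sex, 18540 with 11.04 CPM (female, nicotine) and 25620 with 10.6 CPM (male, no nicotine). Among females without nicotine the highest sum, 18090, went with 7.11 CPM and the lowest, 11970, with 7.99. No correlation was computed.

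The summed level of 9 markers of cortical glutamatergic neurons moved the other way, from 2560 to 3339 normalized CPM in female air samples to 1727 to 2421 with nicotine and 1022 to 2521 without, and in males from 2475 to 2971 to 1740 to 2464 and 819.3 to 1814. Of these 9 markers 8 were called lower without nicotine in each sex and 0 with nicotine, where all 9 log2 fold changes were below 0. The 9 striatal markers summed to 1129 to 2746 in female air samples, 2500 to 3416 with nicotine and 2169 to 2739 without, with 3 and 1 called higher. In males they summed to 1570 to 2757, 1750 to 3503 and 1865 to 5023, with 0 called with nicotine and 2 higher without. The 6 markers of cholinergic neurons of the basal forebrain rose from 19.6 to 78.6 normalized CPM in female air samples to 82.6 to 191.9 with nicotine and 107.1 to 282.9 without, all 6 called. In males they summed to 34.2 to 80.2, 92.9 to 141.3 and 110.0 to 232.9, with 6 called higher without nicotine and 0 with it. When the library labelled male nicotine replicate 21 was left out, 0 markers of these lists were called in males with nicotine, and without nicotine 3 striatal markers were called in place of 2. No marker of these lists was at 0 counts in any library, and the part of these lists in the changes of *Tnr* was not tested. Of 8 markers of parvalbumin interneurons, the cells that bear most cortical nets, 1 was called higher in females with nicotine, 3 higher in females without, and 2 higher and 1 lower in males without (3 higher when male nicotine replicate 21 was left out), and their summed level ran from 832.8 to 979.9 in female air samples, 922.8 to 1176 with nicotine and 988.0 to 1248 without, and in males from 898.1 to 1052, 1010 to 1153 and 969.3 to 1387. Of 8 markers of oligodendrocyte precursors 2, 5, 0 and 4 were called higher in females with and without and in males with and without nicotine, and of 4 markers of thalamus 1, 1, 0 and 1 higher, with 1 lower in the last. Of 9 astrocyte markers 1 was called higher in males without nicotine and 0 elsewhere, and 0 of the markers of microglia (8), endothelium and mural cells (8) and meningeal fibroblasts (7) were called against air in either sex.

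The other link protein genes did not pass the threshold. *Hapln1*, which codes for the main link protein of the cortical net, ran from 76.7 to 106.9 normalized CPM in female air samples (median 91.4). It was 69.3, 70.7, 92.7, 83.6 and 86.7 with nicotine and 88.0, 75.6, 72.7, 76.0 and 64.3 without. In males it ran from 79.9 to 95.04 in air (median 89.7) and from 73.6 to 90.0 with nicotine (median 78.8), and it was 69.5, 68.9, 73.4, 87.8 and 89.1 without nicotine. The groups overlapped throughout. All 4 log2 fold changes were below 0: -0.18 (95% interval -0.37 to 0.0098) and -0.28 (-0.47 to -0.089) in females with and without nicotine, and -0.16 (-0.30 to -0.012) and -0.20 (-0.35 to -0.043) in males, with edgeR adjusted p of 0.202, 0.0321, 0.307 and 0.0572. The third of these was -0.14 (adjusted p = 0.447) when the library labelled male nicotine replicate 21 was left out, and without female no nicotine replicate 1 the second was -0.34 (adjusted p = 0.00972). Over the 16 fits that each left out a female sample, the second ran from -0.34 to -0.23 (edgeR adjusted p up to 0.0879).

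*Hapln4* (Bral2), a link protein that partners brevican at synapses of certain neurons, varied most among the female air samples, from 82.9 to 150.4 normalized CPM (median 108.2). It was 95.1, 80.1, 94.9, 80.1 and 79.5 with nicotine and 82.1, 89.7, 94.0, 92.4 and 87.4 without. With nicotine 3 of the 5 samples were below all air samples, and without nicotine 1 of the 5 was, while the others lay in the lower part of the air range. Its log2 fold change in females was -0.37 with nicotine (95% interval -0.60 to -0.13, edgeR adjusted p = 0.0372) and -0.31 without (-0.55 to -0.083, adjusted p = 0.0446). Of 16 fits that each left out a female sample, only that without air replicate 1 passed the threshold (-0.44 and -0.39, edgeR adjusted p = 0.00843 and 0.00849). The changes in these fits reached -0.26 and -0.21 at the weakest, with edgeR adjusted p up to 0.08725 and 0.0865. In males it ran from 72.9 to 98.9 in air (median 90.9), with medians of 82.5 with nicotine and 89.9 without, with log2 fold changes of -0.024 (-0.21 to 0.17) and -0.014 (-0.21 to 0.19). The test of the difference between the sexes gave -0.33 with nicotine (female minus male, edgeR adjusted p = 0.754) and -0.29 without (adjusted p = 0.945), so the sexes were not shown to differ.

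Of the 4 lecticans none passed the threshold in any comparison, and the intervals of their changes were narrow for the abundant ones. *Bcan* (brevican, the most abundant lectican of the adult brain, made by glia) changed by 8.40% (95% interval -3.17 to 21.3%) in females with nicotine, 7.96% (-3.56 to 20.9%) without, and in males by 1.77% (-5.79 to 9.92%) with and 10.2% (1.62 to 19.4%) without nicotine. Female samples ranged from 494.2 to 731.0 normalized CPM and male ones from 534.0 to 685.3, and the groups overlapped. *Ncan* (neurocan, which peaks in the young brain) ranged from 445.6 to 625.8 (females) and from 483.1 to 630.3 (males). Its changes were 1.72% (-9.16 to 13.9%) and -3.76% (-14.1 to 7.78%) in females and -3.79% (-11.6 to 4.73%) and -4.35% (-12.5 to 4.56%) in males. The SD among air samples was 10.9% of the mean for *Bcan* and 7.99% for *Ncan* in females and 5.75% and 4.97% in males, and of these 8 changes only that of *Bcan* in males without nicotine was larger than the SD of its own air samples (edgeR adjusted p = 0.0741).

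*Vcan* (versican, with forms made by neural precursors and by oligodendrocytes) lay between 32.3 and 45.0 normalized CPM in females, with changes of 6.81% (95% interval -4.40 to 19.3%) with and -2.30% (-12.6 to 9.17%) without nicotine. In males it ran from 38.6 to 50.1 in air and from 37.1 to 53.6 with nicotine, and it was 44.4, 42.8, 59.7, 53.9 and 55.7 without. The upper 3 of the samples without nicotine were above all air samples. The log2 fold change in males was -0.072 with nicotine (-0.28 to 0.13) and 0.22 without (0.011 to 0.44, edgeR adjusted p = 0.118). *Acan* (aggrecan, the lectican that defines the mature net) ranged from 5.17 to 7.68 normalized CPM (females) and from 5.59 to 8.69 (males). Its changes were -8.25% (-20.2 to 5.52%) and 2.84% (-10.4 to 17.97%) in females and -0.150% (-14.0 to 15.9%) and -6.68% (-20.2 to 9.08%) in males with and without nicotine. Over the 4 comparisons the intervals of *Acan* reached down to -20.2% and up to 17.97%.

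The changes of each lectican and its neighbour on the chromosome are given side by side, in the order females with and without nicotine, then males with and without. *Bcan* had log2 fold changes of 0.12, 0.11, 0.025 and 0.14, and *Hapln2* had 0.65, 0.55, 0.13 and 0.47. *Vcan* had 0.095, -0.034, -0.072 and 0.22, beside -0.18, -0.28, -0.16 and -0.20 for *Hapln1*. The values of *Ncan* were 0.025, -0.055, -0.056 and -0.064, and those of *Hapln4* were -0.37, -0.31, -0.024 and -0.014. *Acan* had -0.12, 0.040, -0.0022 and -0.0998, and *Hapln3*, its neighbour, 0.27, 0.29, 0.22 and 0.26. No difference between neighbours was tested.

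*Tnc* codes for tenascin-C, a matrix protein of precursor cells and reactive astrocytes that is high in the embryo and falls after birth. It was the most variable member in air, with an SD of 33.1% of the mean in females and 28.2% in males. It ran from 7.10 to 16.4 normalized CPM in female air samples (median 9.52). With nicotine it was 8.45, 8.39, 8.67, 9.08 and 8.33, an SD of 3.56%, and without nicotine 11.9, 10.7, 12.3, 12.1 and 9.95. The 2 exposed female groups did not overlap each other, with the nicotine samples lower, as held for 1.01% of all genes in either direction, and both lay within the air range. In males it ran from 9.42 to 18.5 in air and from 9.59 to 16.4 with nicotine, and it was 10.6, 8.94, 9.78, 9.16 and 13.5 without. No change of *Tnc* against air passed the threshold, and the intervals were wide, for example -0.63 to 0.060 on the log2 scale in females with nicotine and -0.63 to 0.097 in males without. *Ptprz1*, a receptor tyrosine phosphatase of glia whose secreted form is the proteoglycan phosphacan, a ligand of tenascin-R, ran from 456.0 to 645.0 normalized CPM in females and from 517.7 to 679.2 in males. Its changes were -2.44% (-13.6 to 10.2%) and 1.82% (-9.81 to 14.96%) in females and -3.36% (-12.0 to 6.15%) and 3.09% (-6.56 to 13.7%) in males.

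The 2 aerosols were also set against each other. They came from different cartridges, and their constituents other than nicotine were not shown to be equal. In females 0 members and 0% of all genes passed the threshold with edgeR, 0 with DESeq2 and 0 with limma-voom, while 1267 genes had an unadjusted p below 0.05. One of these was a member, *Tnc*, at a log2 fold change of -0.41 (95% interval -0.76 to -0.051, edgeR adjusted p = 0.577). In males 0 members passed, beside 0.248% of all genes, and 0 members with DESeq2 or limma-voom. At an unadjusted p below 0.05 were 3 members: *Vcan* (-0.30, 95% interval -0.51 to -0.082), *Hapln2* (-0.33, -0.61 to -0.061) and *Tnc* (0.37, 0.0080 to 0.73), all on the log2 scale with edgeR adjusted p of 0.109, 0.153 and 0.237. *Tnr* differed little between the aerosols, by 0.047 (-0.12 to 0.21) in females and -0.012 (-0.097 to 0.072) in males. Without the library labelled male nicotine replicate 21, edgeR called 5 genes between the aerosols in males in place of 38, and 0 members. *Vcan* then differed by -0.31, *Hapln2* by -0.35 and *Tnc* by 0.40 on the log2 scale (edgeR adjusted p = 0.139, 0.189 and 0.251), and the other 7 members by -0.0998 (*Ptprz1*) to 0.060 (*Hapln1*).

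When the change against air was compared between the sexes, 0 members passed with either aerosol, beside 0% and 0% of 15105 genes with edgeR, 1 and 0 genes with DESeq2 and 0 and 0 with limma-voom. At an unadjusted p below 0.05 there were 978 genes and 2 members (*Hapln2* and *Hapln4*) with nicotine, and 742 genes and 0 members without. These counts keep the library labelled male nicotine replicate 21. Over the 33 fits that each left out a sample, the difference with nicotine ran from 0.39 to 0.62 for *Hapln2*. It ran from -0.41 to -0.23 for *Hapln4* and from -0.057 to 0.038 for *Tnr*. In males with nicotine against air, where 0 genes were called with edgeR and limma-voom and 159 with DESeq2, 2203 genes and 2 members (*Tnr* and *Hapln1*) had an unadjusted p below 0.05. Without the library labelled male nicotine replicate 21, 0 genes were called there by edgeR, and *Hapln1* was no longer below 0.05 (edgeR unadjusted p = 0.0799). The log2 fold changes were then -0.055 for *Acan*, 0.048 for *Bcan*, -0.044 for *Ncan*, -0.088 for *Vcan*, -0.052 for *Hapln4*, 0.14 for *Tnc* and -0.056 for *Ptprz1*, with edgeR adjusted p of 0.768 or more.

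Other genes that build, bind or cut this matrix were read from a list of 54, of which 51 were tested (*Chst13*, *Tnn* and *Mmp3* were too low). In females 3 were called higher and 2 lower with nicotine, and 3 higher and 5 lower without. In males 0 were called with nicotine, also when the library labelled male nicotine replicate 21 was left out (8 had an unadjusted p below 0.05), and 6 were called higher and 5 lower without. The median log2 fold change over the 51 was 0.0063, -0.0014, 0.013 and 0.021 in these comparisons, beside medians over all genes of 0.0041, 0.0092, 0.0065 and 0.016. The genes called were 5, 8, 0 and 11 of the 51, beside 4.29%, 12.1%, 0% and 13.6% of all genes tested. They fell into 5 of the 7 roles of the list.

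Among the receptors for chondroitin sulfate, 2 of 4 were called lower in 3 of the comparisons. *Rtn4rl1*, a Nogo receptor that also binds chondroitin sulfate chains, ran from 80.7 to 97.0 normalized CPM in female air samples, from 55.0 to 79.4 with nicotine and from 51.5 to 68.2 without, with no overlap to air. Its log2 fold changes were -0.48 (SE 0.083, edgeR adjusted p = 0.00222) and -0.60 (SE 0.084, adjusted p = 0.000802). In males it ran from 78.0 to 90.0 in air, from 69.3 to 81.1 with nicotine (log2 fold change -0.13, edgeR adjusted p = 0.331) and from 50.6 to 66.3 without (-0.54, SE 0.062, adjusted p = 2.16e-05). *Rtn4r*, the Nogo receptor proper, changed by -0.79 and -0.99 on the log2 scale in females with and without nicotine (edgeR adjusted p = 0.00856 and 0.00128) and by -0.99 in males without (adjusted p = 0.000126). The phosphatases *Ptprs* and *Ptprf*, the other receptors of the list, did not pass the threshold against air, with *Ptprs* at 262.0 to 300.3 normalized CPM over the female air samples and at 261.9 to 299.6 over the exposed ones.

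Among ligands and partners, the neuronal pentraxin *Nptx2*, which gathers glutamate receptors at synapses on parvalbumin interneurons, and its partner *Nptxr* were called lower without nicotine. *Nptx2* ran from 93.1 to 116.7 normalized CPM in female air samples and from 42.8 to 90.0 without nicotine (log2 fold change -0.65, edgeR adjusted p = 0.00486), and from 80.9 to 103.7 and from 39.5 to 55.9 in males (-0.92, adjusted p = 3.28e-05). *Nptxr* changed by -1.34 in females (adjusted p = 0.00657) and by -2.03 in males (adjusted p = 0.000669) on the log2 scale, with air samples that themselves ran from 17.1 to 80.3 normalized CPM in males. With nicotine neither gene was called. *Nptx2* then ran from 57.3 to 90.5 normalized CPM in females, below all air samples, and from 59.6 to 102.7 in males. *Nptxr* had a mean of 31.1 with nicotine and 70.3 in air in females, and of 41.7 and 58.1 in males. *Mdk* (midkine, a growth factor that binds chondroitin sulfate and phosphacan) was called higher in males without nicotine, from 10.98 to 12.7 normalized CPM in air to 14.1 to 16.5 (log2 fold change 0.38, edgeR adjusted p = 0.000974). *Otx2*, a homeoprotein that binds the net and enters parvalbumin cells, was called higher there too (2.02, SE 0.46, adjusted p = 0.00343) from a low level, at 6 to 15 counts per air sample and 7 to 92 without nicotine, and its ranges overlapped. *Sema3a*, a guidance factor held by the net, was called lower in females without nicotine (-0.30, adjusted p = 0.00742), and is named here although it was picked after its value was seen.

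Among the enzymes, *Adamts4*, a protease that cleaves lecticans and is made by oligodendrocytes, rose in the same 3 comparisons. It ran from 42.5 to 46.7 normalized CPM in female air samples, from 60.1 to 71.0 with nicotine and from 48.8 to 78.6 without (log2 fold changes 0.60 and 0.52, edgeR adjusted p = 0.00194 and 0.00191), and from 51.2 to 62.7 in male air samples to 71.0 to 108.0 without nicotine (0.62, adjusted p = 0.000898). With nicotine in males it ran from 47.6 to 80.4, a log2 fold change of 0.17 (adjusted p = 0.539). *Chst3*, which adds sulfate to position 6 of the chondroitin chains, was called higher in the same 3 comparisons as *Adamts4*, at log2 fold changes of 0.40, 0.29 and 0.35 (edgeR adjusted p = 0.00179, 0.00529 and 0.00551; the male value lay outside the naming rule). *Ust*, a sulfotransferase for uronic acid, was called higher in females with nicotine (0.34, adjusted p = 0.00838), and *Mmp2*, a gelatinase, in females without (0.39, adjusted p = 0.00672). *Tmem2*, a hyaluronidase of the cell surface, was called higher in males without nicotine (0.40, adjusted p = 0.00236). The remaining calls in males without nicotine, named after their values were seen, were *Timp4*, a metalloprotease inhibitor (0.26, adjusted p = 0.00853), and *Xylt1*, which starts the chondroitin chain (-0.30, adjusted p = 0.00657). *Xylt1* ran from 29.7 to 35.0 normalized CPM in male air samples and from 24.3 to 29.8 without nicotine, so the ranges touched. With nicotine in males, where it was not called, it ran from 21.2 to 28.4, below all air samples.

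**Figure D5:**
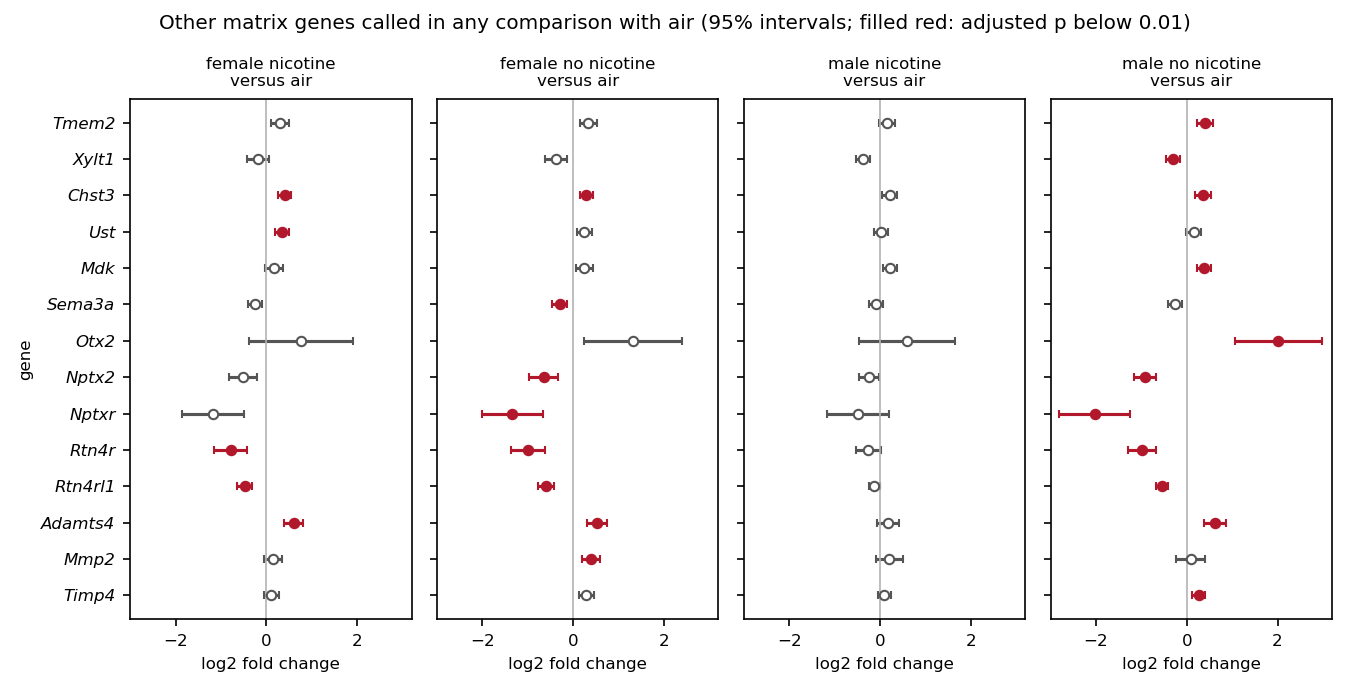
Log2 fold change against air, with 95% intervals from the edgeR fit, of the 14 other matrix genes called in at least 1 comparison, with filled red points where the adjusted p was below 0.01. *Rtn4r*, *Rtn4rl1* and *Adamts4* are red in both female comparisons and in males without nicotine, and 0 points are red in males with nicotine.

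Between the aerosols in males, 2 of the 51 were higher with nicotine, *Nptx2* at a log2 fold change of 0.68 (95% interval 0.44 to 0.92, edgeR adjusted p = 0.00858) and *Rtn4rl1* at 0.41 (0.28 to 0.54, adjusted p = 0.00639), both named after their values were seen. Neither passed without the library labelled male nicotine replicate 21 (0.71 and 0.42, edgeR adjusted p = 0.0162 and 0.0125) or when only these 2 groups were fitted (0.68 and 0.41, adjusted p = 0.0533 for both). In females 0 of the 51 were called between the aerosols, where 2 had an unadjusted p below 0.05.

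For each member, the genes whose log2 CPM followed it most closely over the samples were listed from 13720 genes, by the mean of Pearson's r over the 16 female and over the 17 male samples. The samples of a table share its run and carry the exposures, so r is given as a description. For *Tnr* these were *Arhgap5* (mean r 0.877), *Ppp1r12b* (0.869) and *Pcnx* (0.869). For *Hapln2* they were *Evi2a* (0.873), *Tmem88b* (0.871) and *Adssl1* (0.863). After each group was centred on its own mean, r between *Hapln2* and *Evi2a* was 0.413 in females and 0.846 in males. *Bcan* was followed by *Ttyh1* (0.909), *Hepacam* (0.906) and *Gpr37l1* (0.880), and *Ptprz1* by *Slc1a3* (0.870), *Pdgfra* (0.832) and *Nadkd1* (0.789). *Hapln1* was followed by *Elovl2* (0.866), *Dio2* (0.851) and *Ctnnd2* (0.836), *Vcan* by *Pcsk6* (0.823), *Mex3a* (0.814) and *Cdkn1b* (0.806), and *Ncan* by *Ttyh3* (0.770), *Tgfb1* (0.761) and *Siglech* (0.760). *Hapln4* had *Camk2g* (0.801), *Atmin* (0.772) and *Klc2* (0.719), and *Tnc* had *Apaf1* (0.759), *Ptpn14* (0.737) and *Nhsl1* (0.721). The lowest likeness was that of *Acan*, with *Frk* (0.591), *Ddr2* (0.591) and *Col8a1* (0.584). No member was among the 3 closest genes of another. Of the pairs of members, *Ncan* and *Hapln1* had r of 0.509 in females and 0.799 in males, *Bcan* and *Ptprz1* 0.721 and 0.525, and *Bcan* and *Ncan* 0.747 and 0.361. Others were below 0 in both sexes, with -0.705 and -0.38 for *Hapln2* and *Tnr*, -0.406 and -0.671 for *Hapln2* and *Tnc*, and -0.51 and -0.284 for *Bcan* and *Tnr*. After centring each group these were -0.323 and 0.0666, -0.635 and -0.661, and -0.336 and 0.0224. The pairs named before them stayed above 0 in both sexes after centring.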

How the data were processed

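RNA was taken from the frontal cortex of 33 offspring. The authors deposited raw read counts per gene, 1 table for each sex. Per their methods, single reads were mapped to the mm9 transcriptome with Bowtie1, PCR duplicates were removed with Samtools and reads were counted with HTSeq, so depth here is that of unique reads. Column names tied 33 columns to a labelled sample, and 1 further column was not used. The deposited normalized tables were not used here.

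A gene entered the tests of a sex if its summed CPM there was at least 5 (15158 genes in females, 15293 in males, 15105 in both). After TMM scaling, edgeR 4.0.16 (quasi-likelihood test) was run with the 3 groups of a sex in 1 fit and all 6 groups for the difference between the sexes. p was adjusted by Benjamini-Hochberg over all genes tested, at a threshold of 0.01, and 95% intervals came from the same fits. Normalized CPM uses TMM library sizes. Per the study's methods no litter gave more than 1 pup. The labels do not name litters, and the fit of both sexes took all samples as independent. The alternatives were DESeq2 1.42.0, limma-voom (limma 3.58.1) with quality weights, DESeq2 size factors, upper quartile scaling, a stricter filter, no filter, only the 2 groups compared, each sample left out, and, in females, a block for the replicate number. The fits were tested on simulated data with known changes. In the comparison without nicotine, edgeR recovered 16.4% (females) and 17.9% (males) of genes changed by 0.25 on the log2 scale. At 0.5 it recovered 64.2% and 62.7%. For the difference between the sexes it recovered 5.34% at 0.25. Most changes of 0.25 would thus not pass the threshold. R 4.3.3, Python 3.11.15, pandas 2.3.3 and matplotlib 3.10.9 were used.

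All members are named. Of the 54 other matrix genes, those named per comparison with air are the called genes with the smallest p, at most 4 higher and 4 lower, except where stated. The members, the 54 genes and the 87 markers in 11 lists were chosen with earlier results of these data known. Positions and lengths come from GENCODE vM1 on mm9, promoters from RefSeq.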

Additional observations from a re-analysis of the deposited data

How the results depend on the processing

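The count of members called in females with nicotine (1) fell to 0 when only the 2 groups compared were fitted, and it ran from 0 to 1 when each sample was left out in turn. In females without nicotine (2) it ran from 0 to 2 when each sample was left out. In males with nicotine (0) it was 1 with DESeq2, and in males without nicotine (1) it was 2 with DESeq2 and 1 to 2 when each sample was left out. The call of *Tnr* in males without nicotine held in all 17 fits that left out a sample (adjusted p 0.000748 to 0.00311) and in the 7 other alternatives. Of 1440 values of the 60 member changes under the alternatives, 1362 kept direction and side of the threshold, 29 dropped above the threshold, 7 passed it and 42 changed sign, all of these 42 on changes that were not called.

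The replicate numbers of females did not mark shared litters or days in the labels, and of 14 pairs of samples with the same number 4 had deviations correlated above 0.1 and 6 below -0.1 (r -0.274 to 0.266). With the replicate number as a block, the members called were 0 in females with nicotine and 1 without, and 136 and 736 genes were called in place of 651 and 1829. In the same fit the change between the aerosols was -0.0124 for *Bcan* and -0.0391 for *Hapln2*.

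With limma-voom the sign changed for *Bcan* between the aerosols in females (-0.0066), for *Acan* in males with nicotine (0.0134) and for *Hapln4* in males without (0.0083). With upper quartile scaling it changed for *Acan* in males with nicotine (0.0016). When each sample was left out, the log2 fold change ran from -0.0406 to 0.0808 for *Ncan* and from -0.0833 to 0.0162 for *Ptprz1* in females with nicotine, and from -0.0910 to 0.0013 for *Vcan* and from -0.0217 to 0.0779 for *Ptprz1* without. Between the aerosols in females it ran from -0.0381 to 0.0559 for *Bcan* and from -0.0306 to 0.174 for *Hapln2*. In males with nicotine it ran from -0.0597 to 0.0661 for *Acan*, from -0.0061 to 0.0476 for *Bcan* and from -0.0735 to 0.0141 for *Hapln4*, and without nicotine from -0.0634 to 0.0568 for *Hapln4*. Between the aerosols in males it ran from -0.0205 to 0.0781 for *Ncan*, from -0.0811 to 0.0403 for *Hapln4* and from -0.0398 to 0.0054 for *Tnr*. The cause of these changes was not tested.

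Over all genes, DESeq2 called 1319 in females with nicotine and limma-voom 1012, beside 651. In males with nicotine DESeq2 called 159 and the fit of only the 2 groups 17, beside 0, and between the aerosols in males these called 456 and 0 and limma-voom 59, beside 38. Between the aerosols in males 5 genes were called without the library labelled male nicotine replicate 21. PCR duplicates were removed before counting.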
